A study of Chromochloris zofingiensis with 6 samples.

Results

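Histidine, lysine and arginine carry nitrogen-rich side chains, and 48 genes annotated to their metabolism were followed in the green microalga *Chromochloris zofingiensis* across 6 h of salt treatment. The members were taken by annotation from the amino acid list of the study, 10 from its histidine section, 9 from its lysine section and 29 from its arginine section, each gene counted once. All 48 were found in the deposited files and all passed the filter on low values (a mean of at least 1 FPKM at 0 h or at 6 h), so they are 48 of 13886 genes tested and of 15037 genes listed in any library. The whole amino acid list holds 175 genes, of which 127 belong to other sections.

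Strain ATCC30412 was sampled in 2 groups of 3 cultures, each culture sequenced as 1 library of poly-A RNA. Exponential-phase cells were spun down, washed and put into fresh medium with 200 mM NaCl, and RNA was taken at times given as 0 h and 6 h after this re-inoculation. Whether the 0 h cells had already met the salt is not clear from the labels. All cultures were grown under continuous light and air enriched in CO2, and the groups differ in the labels by time after re-inoculation only. No 6 h culture without salt was used here, so salt, time, handling and fresh medium cannot be told apart in any value below. The measure is FPKM, the fragments of a gene relative to its length and to all mapped fragments. FPKM are per length and let levels be compared between genes, but they are relative to the library and do not measure RNA per cell.

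Histidine is built from phosphoribosyl pyrophosphate (PRPP) and ATP in a single unbranched route. Lysine of plants and green algae is made from aspartate through dihydrodipicolinate and diaminopimelate, and is degraded through saccharopine. Arginine is made from glutamate by way of acetylated intermediates to ornithine, which then takes up carbamoyl phosphate and a nitrogen from aspartate. Ornithine and arginine are also the sources of putrescine, the parent of the polyamines, which amine oxidases break down with release of hydrogen peroxide.

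The libraries listed 14233 to 14697 genes. Low values moved in steps that put the counted fragments of the other libraries at 0.71 to 0.988 times those of 0 h replicate 1. These ratios were inferred from only 17 to 58 genes per library, and the lowest, that of 6 h replicate 1, from 17 genes. Whether the steps reflect sequencing depth was not tested. The study lists similar numbers of clean reads for all libraries. The 0 h cultures lay close together, whereas 6 h replicates 1 and 3 stood apart from each other, with residual SDs on the log2 scale over all genes of 0.541 and 0.630 against 0.165 to 0.195 for the 0 h libraries. Over the 48 members the median coefficient of variation was 5.31% at 0 h and 19.3% at 6 h, and over all genes tested 7.28% and 23.5%. Results that rest on 1 of these libraries are given with and without it.

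Most of the 48 genes were higher at 6 h. Their summed FPKM was 2263, 2291 and 2348 in the 0 h libraries and 6821, 6643 and 5863 in the 6 h libraries. In limma's test, a gene was called when the Benjamini-Hochberg adjusted p over all 13886 genes was under 0.05 and the log2 fold change (6 h minus 0 h, on scaled FPKM plus 0.1) was at least 1 in size. By this rule 32 of the 48 were higher at 6 h, 5 were lower and 11 were not called, where 20.0% of all genes tested were called higher and 26.6% lower. Over the members the log2 fold change had a median of 1.65 and ran from −3.32 to 3.69, and over all genes tested its median was −0.04.

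On the deposited FPKM, all 3 values at 6 h lay above all 3 at 0 h for 34 members and below them for 10, and the times overlapped for 4. The same held for 27.2% (above) and 46.1% (below) of all genes tested. The level of the genes was moderate at 0 h, where 33 of 48 were above the median gene of 29.2 FPKM, and at 6 h 39 of 48 were above the median gene of 23.5 FPKM. Among the other 127 genes of the amino acid list, 53 were higher and 21 lower (41.7% and 16.5%, median 0.69), against 20.0% and 26.6% of all genes tested.

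The scaling between libraries moved all genes together. With FPKM as deposited, as TPM, or scaled by the upper quartile, the median of all genes tested lay at −0.34, −0.47 and −0.34, and the share of higher calls among all calls fell from 42.9% to 30.1%, 25.5% and 30.3%. The members lay 1.69 above the median of all genes in each of the 4 scalings, and their calls stood at 29 higher and 7 lower, 26 and 7, and 29 and 7. Of the 32 higher calls 26 were kept under all 3 other scalings, as were all 5 lower calls.

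Of 29 genes that lead towards the 3 amino acids, 24 were higher and 1 was lower, and their log2 fold changes had a median of 1.71. The other 19 genes are annotated to degradation or use of the amino acids, of ornithine or of amines. Most of the 19 act on ornithine, agmatine or other amines and not on the 3 amino acids themselves. Of the 19, 8 were higher and 4 lower (42.1% and 21.1%), with a median of 0.76. Over all genes tested 20.0% were higher and 26.6% lower, so the share of lower calls among the 19 was not above that of all genes. Whether the 2 classes differ was not tested, since the members were listed with earlier results known.

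**Figure D1:**
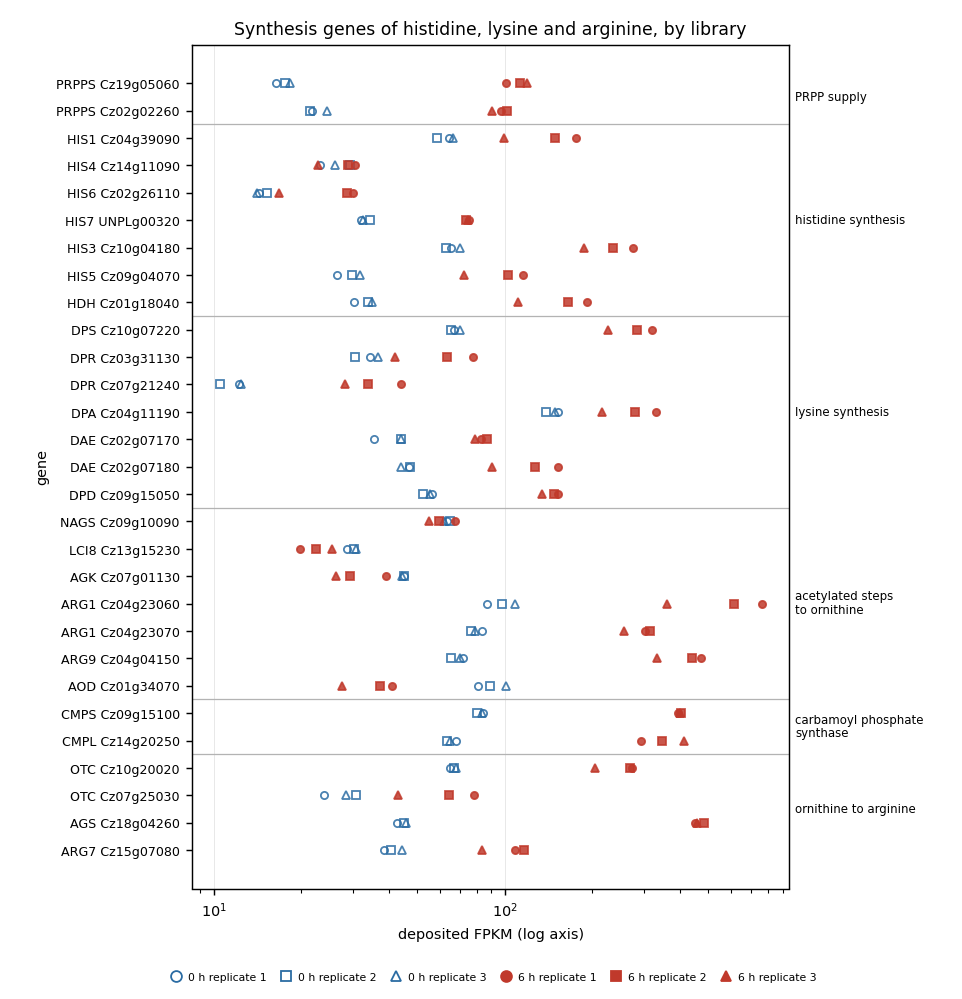
Deposited FPKM (log axis) of the 29 genes of synthesis in each of the 6 libraries, with open blue marks for 0 h and filled red marks for 6 h, and the mark's shape giving the replicate. For 24 genes all red marks lie to the right of the blue ones, and 3 genes of the acetylated arginine steps (LCI8, AGK and AOD) have all red marks to the left. Over all genes tested 27.2% lay to the right and 46.1% to the left.

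Histidine synthesis was higher at 8 of its 9 listed genes, counted with the supply of PRPP, against 20.0% of all genes tested. Both genes for PRPP synthetase, which makes the sugar phosphate that starts the route, rose from low levels. Gene Cz19g05060 was at 16.4, 17.6 and 18.3 FPKM in 0 h replicates 1, 2 and 3 and at 101, 113 and 119 FPKM in the 6 h replicates, in the same order of replicates as all values that follow. Gene Cz02g02260 was at 21.8, 21.5 and 24.6 FPKM at 0 h and 97.3, 102 and 90.0 FPKM at 6 h. Neither gene's times overlapped, and Cz19g05060 went from the lower to the higher level of the pair. On the log2 scale its change was 2.97 (SE 0.10, limma adjusted p = 9.43e-06), a 6.38-fold ratio of the mean deposited FPKM, while that of Cz02g02260 was 2.39.

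HIS1 (Cz04g39090), the ATP phosphoribosyltransferase that commits PRPP to histidine, was at 64.5, 58.5 and 66.5 FPKM at 0 h and 175, 148 and 99.3 FPKM at 6 h, with the third 6 h culture well below the other 2. HIS4 (Cz14g11090), the hydrolase and cyclohydrolase that opens the purine ring, was the one gene of the route that was not called. It had 26.2 ± 3.12 FPKM at 0 h and 27.5 ± 4.08 FPKM at 6 h (mean ± SD, n = 3), the times overlapped, and its log2 fold change of 0.37 turned to −0.07 on TPM. HIS6 (Cz02g26110), the isomerase of the next step, was at 14.4, 15.3 and 14 FPKM at 0 h and 30.1, 28.6 and 16.7 FPKM at 6 h. The log2 fold change of HIS6, 1.04, was the smallest of the higher calls, and the call was lost under each other scaling and without 6 h replicate 1 (0.88) or 6 h replicate 2 (0.93).

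The remaining 4 genes listed for the route were all higher. HIS7 (UNPLg00320), the glutamine amidotransferase that closes the imidazole ring, was at 32, 34.4 and 32.7 FPKM at 0 h and at 75.5, 73.5 and 74.5 FPKM at 6 h, the narrowest 6 h spread of the route. HIS3 (Cz10g04180), imidazole glycerol-phosphate dehydratase, had 65.5, 62.6 and 70.0 FPKM at 0 h and 277, 236 and 187 FPKM at 6 h. HIS5 (Cz09g04070), the aminotransferase that brings in the amino group, had 26.5, 29.8 and 31.9 FPKM at 0 h and 115, 103 and 72.6 FPKM at 6 h. The 6 h values of both exceeded every 0 h value, and in both the lowest 6 h value was that of replicate 3.

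HDH (Cz01g18040), the histidinol dehydrogenase that completes histidine, showed the largest rise of the 7 genes from HIS1 to HDH, below that of PRPP synthetase Cz19g05060. It was at 30.4, 33.9 and 35 FPKM at 0 h and 191, 165 and 111 FPKM at 6 h, with a log2 fold change of 2.50 (SE 0.22, limma adjusted p = 0.000151). Relative to the 0 h level all 3 cultures were raised, the third one least. The log2 fold changes of HIS1, HIS7, HIS3 and HIS5 were 1.43, 1.48, 2.11 and 2.0, and that of HIS1 fell just under the size limit on TPM (0.99).

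The gene annotated as histidine decarboxylase, HDC (Cz06g24140), was higher at 6 h. Histidine decarboxylases form histamine in animals, and in *Arabidopsis* a protein once given this name decarboxylates serine, so the substrate of the algal enzyme is not known from the name. HDC was at 54.4, 55.9 and 58.1 FPKM at 0 h and 299.9, 313 and 365 FPKM at 6 h, the highest 6 h level in the histidine section. The log2 fold change of HDC was 2.84 (SE 0.11, limma adjusted p = 1.06e-05), and unlike the 7 genes from HIS1 to HDH it had its highest 6 h value in replicate 3 and not in replicate 1.

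All 9 genes of the lysine section were higher at 6 h, against 20.0% of all genes tested, with log2 fold changes from 1.11 to 3.67. DPS (Cz10g07220), the dihydrodipicolinate synthase that takes aspartate semialdehyde into the lysine branch, was at 66.8, 65.4 and 70.2 FPKM at 0 h and 319, 285 and 227 FPKM at 6 h. Of the steps to lysine this first one rose most, by a log2 fold change of 2.33 (SE 0.15, limma adjusted p = 4.78e-05), and its level at 6 h, 277 ± 46.7 FPKM (mean ± SD, n = 3), was the highest of the branch together with that of DPA, 275 ± 57.5 FPKM. In bacteria and plants lysine inhibits this enzyme.

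Dihydrodipicolinate reductase, DPR, which reduces the product of DPS, has 2 genes in the list. Gene Cz03g31130 was at 34.5, 30.5 and 36.8 FPKM at 0 h and 77.7, 63.4 and 41.9 FPKM at 6 h, and gene Cz07g21240 was at 12.2, 10.5 and 12.4 FPKM at 0 h and 44.1, 33.8 and 28.3 FPKM at 6 h. The times did not overlap for either gene, although 6 h replicate 3 of Cz03g31130 was only just above the highest 0 h value. The gene with the lower level rose more (log2 fold change 1.88 against 1.11), so that its share of the DPR FPKM went from 25.6% to 37.1%. The call of Cz03g31130 was lost under each other scaling (0.67 to 0.80) and without 6 h replicate 1 (0.90).

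DPA (Cz04g11190), the LL-diaminopimelate aminotransferase that marks the short route of plants and algae, had the highest 0 h level of the branch. It was at 152, 138 and 148 FPKM at 0 h and 329.7, 279 and 215 FPKM at 6 h. All 6 h values were above all 0 h values, and the log2 fold change was 1.2, which fell below the size limit under each other scaling (0.76 to 0.89).

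Diaminopimelate epimerase, DAE, which turns the LL form into the meso form, also has 2 genes, with consecutive identifiers. Gene Cz02g07170 was at 35.7, 44 and 43.9 FPKM at 0 h and 82.9, 87.1 and 79.1 FPKM at 6 h. Gene Cz02g07180 was at 46.9, 47.2 and 44.1 FPKM at 0 h and 152, 127 and 90.5 FPKM at 6 h. The first gene was steady among the 6 h cultures and the second was not, and their log2 fold changes were 1.32, which fell to 0.88 on TPM and lost its call there, and 1.69. DPD (Cz09g15050), the decarboxylase that yields lysine, was at 56.4, 52.4 and 55.1 FPKM at 0 h and 153, 147 and 134 FPKM at 6 h, with a log2 fold change of 1.71.

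The 2 saccharopine dehydrogenases, SDH, rose as well. In plants such enzymes take part in the degradation of lysine and in fungi in its synthesis. Gene Cz02g35120 was at 12.5, 13 and 12.6 FPKM at 0 h and 146, 120.4 and 128 FPKM at 6 h. This was the largest change of the lysine section, a log2 fold change of 3.67 (SE 0.12, limma adjusted p = 8.38e-06), or a 10.4-fold ratio of the mean deposited FPKM. Gene Cz15g19010 was at 7.85, 5.84 and 7.3 FPKM at 0 h and 36.7, 24.6 and 13.6 FPKM at 6 h, a log2 fold change of 2.02 with a large spread among the 6 h cultures. Together the pair went from 19.7 ± 0.799 to 156 ± 23.2 FPKM (mean ± SD, n = 3), and the share of Cz02g35120 in it from 64.6% to 84.5%.

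The 3 genes that feed aspartate into lysine, threonine and methionine were all higher, against 20.0% of all genes tested. ASK (Cz08g14200), aspartate kinase, went from 16.1 ± 0.492 to 71.8 ± 4.74 FPKM (mean ± SD, n = 3). ASSD (Cz04g20200), aspartate semialdehyde dehydrogenase, went from 46 ± 3.23 to 457 ± 58.6 FPKM. AHD (Cz02g01150), a kinase joined to homoserine dehydrogenase, went from 49.2 ± 1.72 to 96.5 ± 12.8 FPKM. Their log2 fold changes were 2.46, 3.61 and 1.27, and the value of ASSD was above those of all 7 lysine synthesis genes (1.11 to 2.33). These calls are given with median-of-ratios scaling only, under which the median of all genes lay higher than with the other scalings. The value of AHD was not far above the size limit, and without scaling its mean deposited FPKM rose 1.96-fold, which falls short of that limit.

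**Figure D2:**
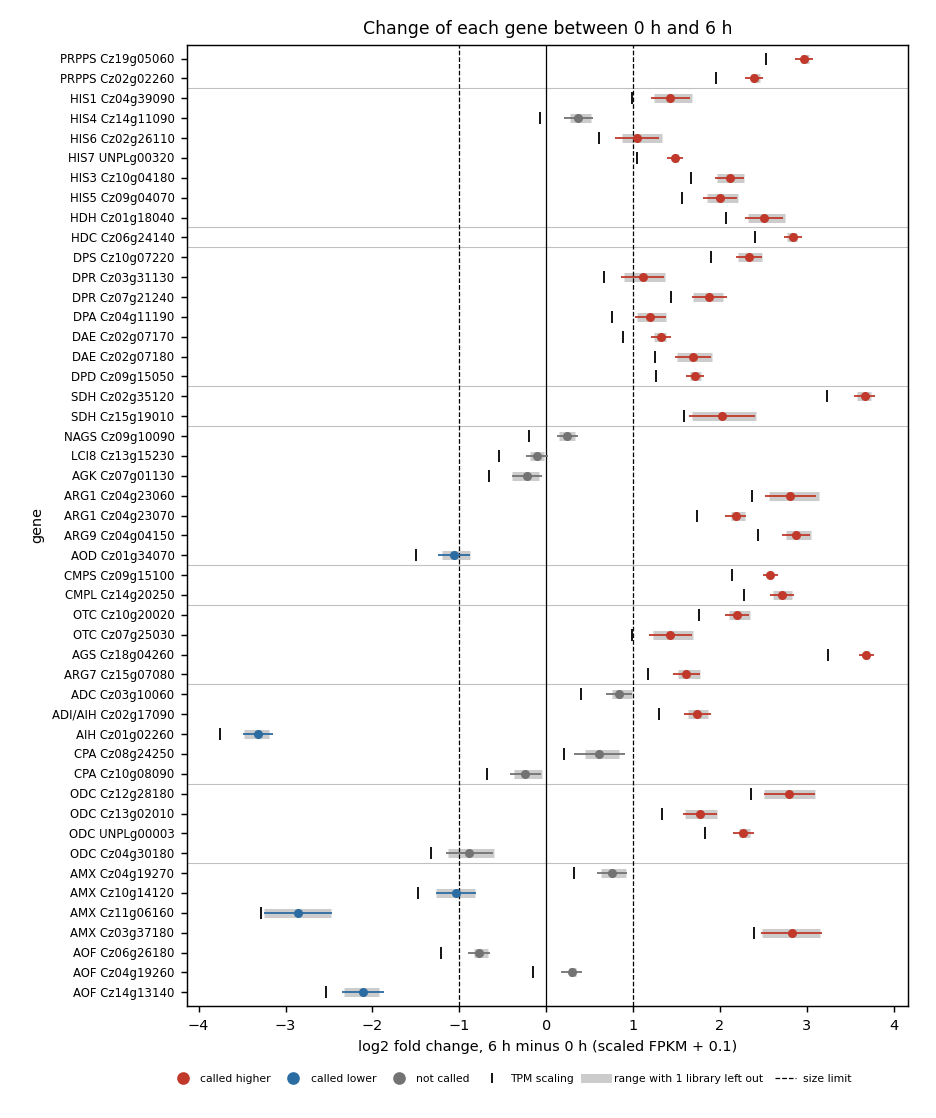
Log2 fold change (6 h minus 0 h) of the 48 genes with its SE as a bar, in red for genes called higher, blue for genes called lower and grey for the rest, over a grey band that spans the values with 1 library left out, and with a black tick for the value on TPM. The lines between groups part the roles, the dashed lines stand at −1 and 1, and the values run from −3.32 for AIH Cz01g02260 to 3.69 for AGS.

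Arginine synthesis was uneven. Of the 7 genes of the acetylated steps that lead from glutamate to ornithine, 3 were higher, 1 was lower and 3 were not called. In contrast, all 6 genes from carbamoyl phosphate and ornithine onwards were higher, where 20.0% of all genes tested were higher and 26.6% lower. The genes listed for the first 2 reactions were not called. NAGS (Cz09g10090), listed as a bifunctional N-acetylglutamate synthase, was at 63.2, 64.8 and 61.9 FPKM at 0 h and 67.7, 59.6 and 54.9 FPKM at 6 h. LCI8 (Cz13g15230), listed as the monofunctional form, was at 28.8, 30.4 and 30.8 FPKM at 0 h and 19.8, 22.4 and 25.6 FPKM at 6 h. The times overlapped for NAGS, with a log2 fold change of 0.24 that turned to between −0.07 and −0.20 under the other scalings. For LCI8 the deposited 6 h values were all below those at 0 h, but the log2 fold change on scaled values was −0.11.

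AGK (Cz07g01130), the acetylglutamate kinase that arginine inhibits in plants and algae, was at 44.9 ± 0.519 FPKM at 0 h and 31.6 ± 6.58 FPKM at 6 h (mean ± SD, n = 3). As for LCI8, the deposited 6 h values were all below those at 0 h, while on scaled values the log2 fold change was −0.22 with an adjusted p of 0.294 in limma.

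The next reactions were strongly raised. N-acetyl-gamma-glutamyl-phosphate reductase, ARG1, has 2 genes with consecutive identifiers. Gene Cz04g23060 was at 86.8, 98.1 and 108 FPKM at 0 h and 763, 614 and 359.6 FPKM at 6 h, and gene Cz04g23070 at 83.3, 76.2 and 79 FPKM at 0 h and 304, 316 and 257 FPKM at 6 h. At 0 h the genes were near each other, and at 6 h Cz04g23060 had the highest mean of all 48 genes, 579 ± 204 FPKM (mean ± SD, n = 3), with replicate 1 above replicate 3 by a factor of 2.12. Their log2 fold changes were 2.81 and 2.18.

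ARG9 (Cz04g04150), the aminotransferase that forms acetylornithine, was at 71.8, 65.5 and 70.0 FPKM at 0 h and 474, 438 and 332 FPKM at 6 h. It was the largest rise among the acetylated steps, a log2 fold change of 2.88 (SE 0.16, limma adjusted p = 2.81e-05). AOD (Cz01g34070), a deacetylase that frees ornithine, went the other way. It was at 80.7, 89.2 and 101 FPKM at 0 h and 40.9, 37.2 and 27.5 FPKM at 6 h, and its groups did not overlap. This is the change of a single gene and not of the step as a whole. AOD had a log2 fold change of −1.06 (SE 0.18, limma adjusted p = 0.00265), close to the size limit, and it was no longer called without 0 h replicate 3 (−0.99) or 6 h replicate 3 (−0.88).

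Carbamoyl phosphate synthase, which supplies arginine and pyrimidine synthesis from glutamine, is made of 2 subunits, and both rose. The small subunit CMPS (Cz09g15100) was at 83.9, 80.5 and 83.4 FPKM at 0 h and 394, 402 and 399 FPKM at 6 h. The large subunit CMPL (Cz14g20250) was at 68.2, 63.5 and 64.8 FPKM at 0 h and 293, 348 and 414 FPKM at 6 h. CMPS was the steadiest of the 48 genes among the 6 h cultures, with a coefficient of variation of 1.04%, while CMPL differed between them. The log2 fold changes were 2.58 and 2.72 (SE 0.14, limma adjusted p = 2.09e-05), and the log2 ratio of CMPS to CMPL, 0.33 at 0 h and 0.19 at 6 h, overlapped between the times (exact two-sided permutation p = 0.4, change −0.14 with an SE of 0.14).

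Ornithine carbamoyltransferase, OTC, which joins ornithine and carbamoyl phosphate to citrulline, has 2 genes. Gene Cz10g20020 was at 64.8, 66.7 and 68.1 FPKM at 0 h and 273, 269 and 204 FPKM at 6 h, and gene Cz07g25030 at 23.9, 30.8 and 28.5 FPKM at 0 h and 78.3, 64.5 and 43.1 FPKM at 6 h. The gene with the higher level also rose more, by log2 fold changes of 2.2 against 1.43, and its share of the OTC FPKM went from 70.6% to 80.3%. The value of Cz07g25030 fell just under the size limit on TPM (0.99).

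AGS (Cz18g04260), the argininosuccinate synthase that adds the nitrogen of aspartate to citrulline, had the largest rise of the 48 genes, within the SE of that of SDH Cz02g35120. It was at 42.5, 45.1 and 45.7 FPKM at 0 h and 451, 482 and 456 FPKM at 6 h. The 6 h cultures agreed closely, the level being 463 ± 16.9 FPKM against 44.4 ± 1.7 FPKM at 0 h (mean ± SD, n = 3), a 10.4-fold ratio. AGS had a log2 fold change of 3.69 (SE 0.09, limma adjusted p = 6.29e-06), which ranked 170 from the top among the 13886 genes tested. ARG7 (Cz15g07080), the argininosuccinate lyase that releases arginine, was at 38.4, 40.5 and 44.4 FPKM at 0 h and 108, 117 and 83.2 FPKM at 6 h, a smaller rise of 1.61 on the log2 scale.

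**Figure D3:**
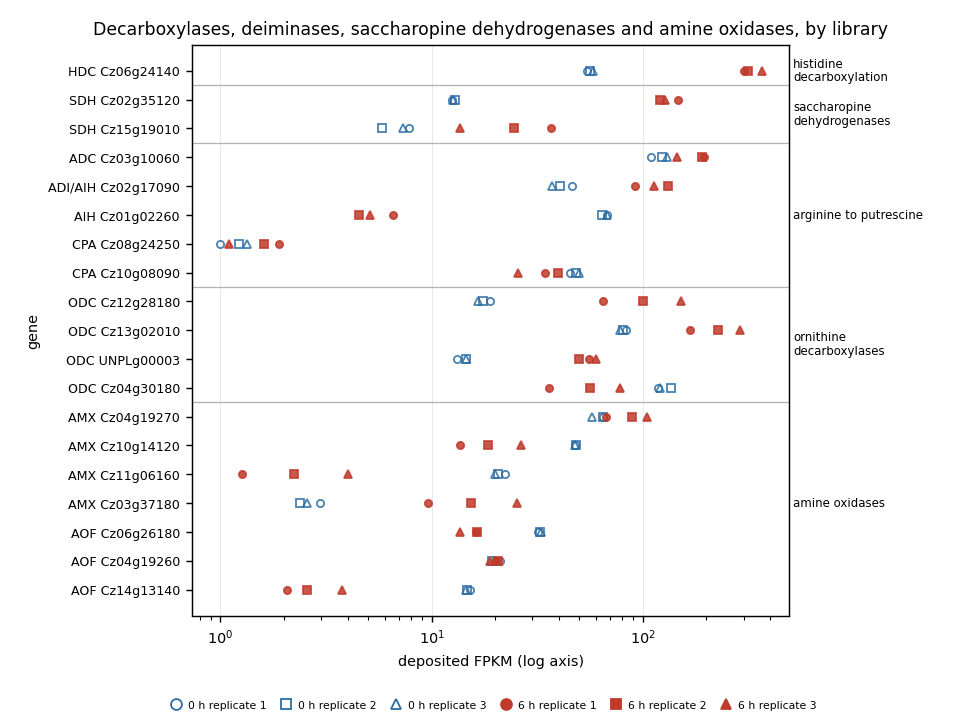
Deposited FPKM (log axis) of the 19 members outside synthesis in each of the 6 libraries. These genes are annotated to act on histidine, lysine, arginine, ornithine or amines. Open blue marks stand for 0 h, filled red marks for 6 h, and the mark's shape gives the replicate. The 6 h marks lie to the right of the 0 h marks for 10 genes and to the left for 7, and 2 genes overlap. Over all genes tested 27.2% lay to the right and 46.1% to the left.

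The genes from arginine and ornithine towards putrescine and its oxidation did not move as a group. Of 5 genes of the route through arginine, 1 was higher and 1 lower, near the shares over all genes tested (20.0% and 26.6%). ADC (Cz03g10060), the arginine decarboxylase that forms agmatine, had the highest level of them, 121 ± 10.4 FPKM at 0 h and 176 ± 27.1 FPKM at 6 h (mean ± SD, n = 3). Its 6 h values were all above the 0 h values, but the log2 fold change of 0.84 was under the size limit.

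The genes listed for the next step changed order in level, and whether both are agmatine deiminases was not tested. Cz02g17090 is listed both as arginine deiminase and as agmatine deiminase, which turns agmatine into N-carbamoylputrescine, and Cz01g02260 as agmatine deiminase (AIH). Cz02g17090 was at 46, 40.4 and 37 FPKM at 0 h and 91.7, 131 and 113 FPKM at 6 h, the largest rise of the route, with a log2 fold change of 1.74 (SE 0.16, limma adjusted p = 0.000185). Cz01g02260 was at 68, 64.3 and 67.9 FPKM at 0 h and 6.54, 4.51 and 5.1 FPKM at 6 h, which was the largest fall of the 48 genes. Its log2 fold change was −3.32 (SE 0.17, limma adjusted p = 2.28e-05), and the mean deposited FPKM was 12.4-fold higher at 0 h.

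The sum of the 2 genes was 108 ± 5.27 FPKM at 0 h and 117 ± 18.7 FPKM at 6 h (mean ± SD, n = 3), with overlapping deposited values, although on scaled values all 6 h sums were above the 0 h sums (exact two-sided permutation p = 0.1). Within this sum Cz02g17090 went from 38.1% to 95.2%. The log2 ratio of Cz02g17090 to Cz01g02260, which does not depend on the scaling, was −0.56, −0.67 and −0.87 in the 0 h libraries and 3.79, 4.83 and 4.45 in those of 6 h. It changed by 5.06 with an SE of 0.32. No lower p than the 0.1 found here is possible in an exact permutation test of 3 libraries against 3.

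N-carbamoylputrescine amidase, CPA, the enzyme that completes putrescine on this route, has 2 genes at very unequal levels. Gene Cz10g08090 was at 45.1, 48.2 and 49.9 FPKM at 0 h and 34.2, 39.5 and 25.6 FPKM at 6 h. Gene Cz08g24250 was at 0.99, 1.22 and 1.34 FPKM at 0 h and 1.89, 1.61 and 1.1 FPKM at 6 h, near the limit of the filter. Neither was called, with log2 fold changes of −0.24 and 0.61, and the first gene held 97.6% of the CPA FPKM at 0 h and 95.6% at 6 h.

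Ornithine decarboxylase, ODC, makes putrescine in 1 step, and 3 of its 4 genes were higher, against 20.0% of all genes tested. Cz12g28180 was at 18.8, 17.5 and 16.6 FPKM at 0 h and 64.7, 100.2 and 152 FPKM at 6 h, the largest rise of the family, with a log2 fold change of 2.80 (SE 0.29, limma adjusted p = 0.000327). Cz13g02010 was at 83.1, 80.7 and 78.3 FPKM at 0 h and 168, 227 and 289.8 FPKM at 6 h. UNPLg00003 was at 13.2, 14.5 and 14.6 FPKM at 0 h and 55.8, 50.1 and 59.9 FPKM at 6 h. The first 2 were higher in 6 h replicate 3 than in replicate 1 by factors of 2.35 and 1.73, while UNPLg00003 was even among the cultures.

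The gene that was most abundant at 0 h was not called, although its values did not overlap. Cz04g30180 was at 117, 135 and 120.0 FPKM at 0 h and 35.9, 56.5 and 78 FPKM at 6 h. Its log2 fold change was −0.89 (SE 0.27, limma adjusted p = 0.0264), under the size limit, and it was called lower under each other scaling (−1.20 to −1.33) and without 6 h replicate 3 (−1.14). The 4 genes summed to 232, 248 and 229 FPKM at 0 h, and to 324, 434 and 579.8 FPKM at 6 h. Within it Cz04g30180 went from 52.4% to 12.5% and Cz13g02010 from 34.1% to 51.3%, so that another gene was the most abundant at 6 h.

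The log2 ratio of Cz12g28180 to Cz04g30180 was −2.64, −2.94 and −2.84 in the 0 h libraries and 0.85, 0.82 and 0.96 in those of 6 h. These ratios were even within each time although both genes differed between the 6 h cultures. The change was 3.68 with an SE of 0.10, at the smallest exact permutation p of 0.1.

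**Figure D4:**
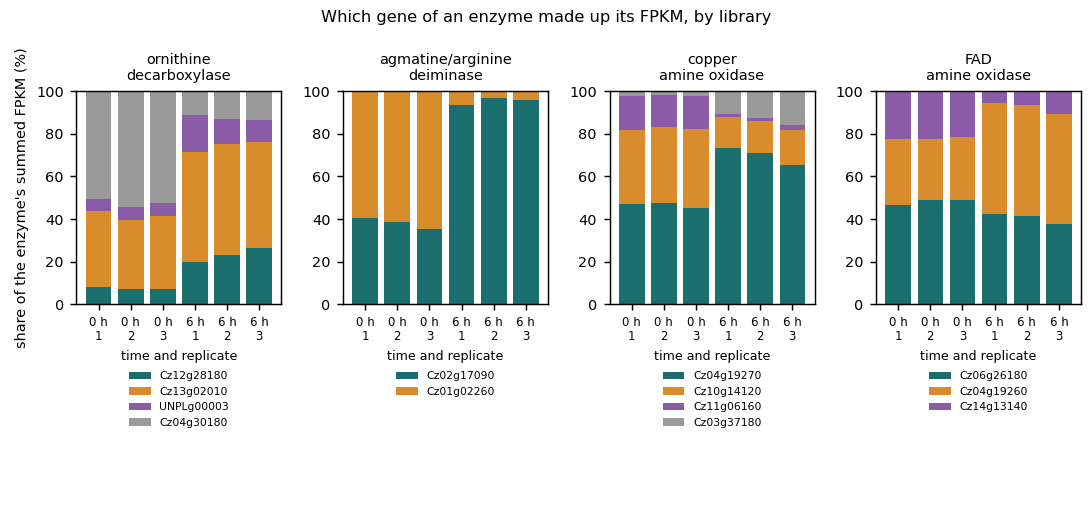
Share of an enzyme's summed deposited FPKM (%) held by each of its genes in each library, for ornithine decarboxylase, agmatine or arginine deiminase, copper amine oxidase and FAD amine oxidase. Cz04g30180 goes from 50.5% to 54.5% of ornithine decarboxylase at 0 h to between 11.1% and 13.5% at 6 h. Cz02g17090, listed as both arginine and agmatine deiminase, goes from 35.3% to 40.4% of the deiminase pair to between 93.3% and 96.7%.

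Of the 7 amine oxidases 3 were lower and 1 was higher, where 26.6% and 20.0% of all genes tested were, and 1 of the 3 lower calls did not hold without 6 h replicate 1. Among 4 copper amine oxidases, AMX, which oxidise putrescine and other primary amines, Cz04g19270 had the highest level and was at 64.7, 65 and 57.3 FPKM at 0 h and 66.9, 88.5 and 104 FPKM at 6 h. It was above the 0 h values in all 6 h cultures but its log2 fold change of 0.76 was under the size limit. Cz10g14120 was at 47.8, 48.3 and 47.5 FPKM at 0 h and 13.6, 18.4 and 26.4 FPKM at 6 h. The log2 fold change was −1.04, and it was no longer called without 6 h replicate 1 (−0.82).

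The 2 remaining AMX genes exchanged places. Cz11g06160 was at 22.2, 20.6 and 20.0 FPKM at 0 h and 1.27, 2.23 and 4.01 FPKM at 6 h, the largest fall of the amine oxidases, with a log2 fold change of −2.85 (SE 0.39, limma adjusted p = 0.000992). Cz03g37180 was at 2.96, 2.38 and 2.57 FPKM at 0 h and 9.62, 15.4 and 25.4 FPKM at 6 h, their largest rise, with a log2 fold change of 2.82 (SE 0.35, limma adjusted p = 0.00067). Both were higher in 6 h replicate 3 than in replicate 1, by factors of 3.16 and 2.64. Their log2 ratio, 2.87, 3.06 and 2.91 at 0 h, was −2.83, −2.74 and −2.63 at 6 h, a change of −5.68 with an SE of 0.08 and the largest of all pairs compared.

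The sum of the AMX genes was 134 ± 5.6 FPKM at 0 h and 125 ± 34.5 FPKM at 6 h (mean ± SD, n = 3), and on scaled values the times overlapped (exact two-sided permutation p = 0.5). Within it Cz04g19270 went from 46.6% to 69.8% and Cz10g14120 from 35.8% to 15.4%.

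Among the 3 FAD amine oxidases, AOF, a group that includes the polyamine oxidases, Cz14g13140 was lower. It was at 15.2, 14.8 and 14.6 FPKM at 0 h and 2.06, 2.57 and 3.78 FPKM at 6 h, with a log2 fold change of −2.11. Cz06g26180 was at 32, 32.5 and 33 FPKM at 0 h and 16.2, 16.3 and 13.6 FPKM at 6 h, below the 0 h values in every culture. Its log2 fold change of −0.77 was not called, but it was under each other scaling (−1.08 to −1.21). Cz04g19260 was at 21.1, 19.3 and 19.8 FPKM at 0 h and 20.2, 20.6 and 18.8 FPKM at 6 h, overlapping, with a log2 fold change of 0.29 that turned to between −0.01 and −0.15 under the other scalings.

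The AOF sum was 67.4 ± 0.857 FPKM at 0 h and 38 ± 1.69 FPKM at 6 h (mean ± SD, n = 3). All 6 h sums lay below all 0 h sums, and the exact permutation p on scaled values was 0.1.

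In all, 25 pairs of genes for one enzyme, with the pair of carbamoyl phosphate synthase subunits, were compared by the log2 ratio of their FPKM within a library. For 21 pairs the ratios at the 2 times did not overlap, which gave the smallest exact permutation p of 0.1 and an adjusted p of 0.119 over the 25 pairs, so no pair could pass 0.05 in this design. The pairs share genes, 6 of them being made from the 4 AMX genes, and among all single genes tested 27.2% and 46.1% lay above and below without overlap, so the count of 21 is a description only. The ratio changed by at least 1 on the log2 scale for 15 pairs, all among the saccharopine dehydrogenases, agmatine or arginine deiminases, ornithine decarboxylases and amine oxidases. Among the synthesis enzymes the change of the ratio lay between −0.77 and 0.77. Whether similar genes of one enzyme share fragments in the deposited FPKM was not tested, but no member had the same values in all libraries as another gene.

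Proline is also made from glutamate and can be formed from ornithine. With median-of-ratios scaling, the only one given here, 3 of 7 genes of the proline section were higher and 4 were not called. Over all genes tested 20.0% were higher. PROB1 (Cz03g37160), gamma-glutamyl kinase, went from 16.9 ± 2.16 to 30.0 ± 7.4 FPKM, PCR (Cz14g23140) from 16.8 ± 1.67 to 60.4 ± 11.3 FPKM and PCR (Cz13g01190) from 17 ± 0.752 to 61.2 ± 15.8 FPKM (mean ± SD, n = 3). The 2 PCR genes, for the pyrroline-5-carboxylate reductase of the last step, had log2 fold changes of 2.14 and 2.12. That of PROB1 Cz03g37160 was 1.11, close to the size limit, and without scaling its mean deposited FPKM rose 1.78-fold, which falls short of that limit. The other PROB1 gene, Cz03g37150, went from 17.6 ± 1.39 to 22.8 ± 2.97 FPKM (mean ± SD, n = 3). It was not called, with a log2 fold change of 0.67. OTA (Cz02g18080), the ornithine aminotransferase that links the routes, was not called, with a log2 fold change of −0.20. On the deposited FPKM, all 6 h values lay above those at 0 h for 5 of the 7 genes. They lay below for 2, OTA and PDH (Cz05g12130), and on scaled values OTA overlapped while PDH stayed below. PDH had a log2 fold change of −0.74 (SE 0.11, limma adjusted p = 0.0016), under the size limit. Without scaling its mean deposited FPKM was 2.07-fold higher at 0 h, which is beyond that limit.

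Between the 6 h cultures, replicate 1 was above replicate 3 in 24 of 29 synthesis genes, with a median log2 ratio of 0.49, and in 8 of 19 of the other members (42.1%), with a median of −0.28. Over all genes tested replicate 1 was above replicate 3 in 52.0%, with a median of 0.05, and no test of the roles was made. All 4 ornithine decarboxylases and 5 of 7 amine oxidases were higher in replicate 3, including genes that rose and genes that fell from 0 h. The summed FPKM of the synthesis genes was 5556, 5221 and 4290 in the 6 h replicates, against 1480 to 1560 at 0 h, and that of the others was 1265, 1422 and 1573, against 783 to 803 at 0 h. Each of these sums was above every 0 h sum.

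**Figure D5:**
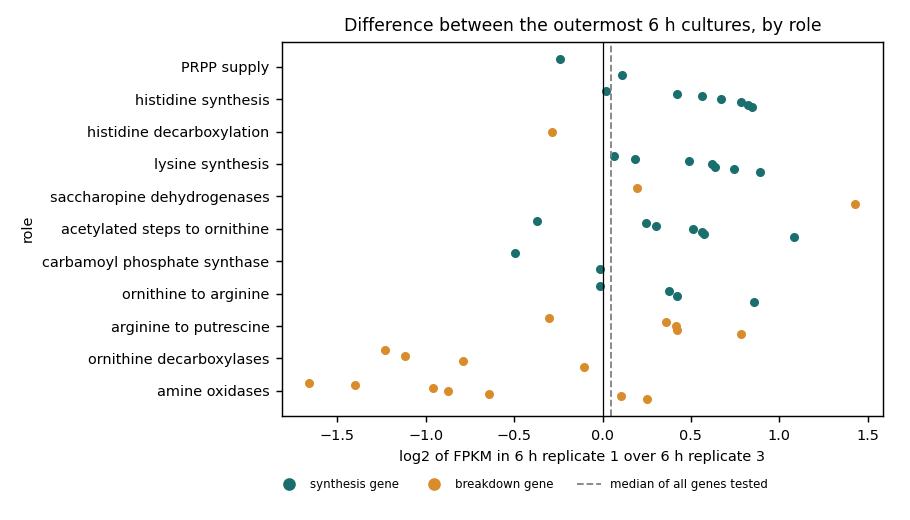
Log2 ratio of FPKM in 6 h replicate 1 to that in 6 h replicate 3 for each of the 48 genes, by role, in teal for synthesis genes and orange for the others, with a dashed line at the median of all genes tested (0.05). Of the synthesis genes 24 of 29 lie above 0, and all 4 ornithine decarboxylases and 5 of 7 amine oxidases lie below it.

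Leaving out each library in turn left 30 to 32 genes higher and 4 or 5 lower. In all, 30 of the higher and 3 of the lower calls were kept whichever library was left out. The higher calls lost were those of HIS6 and DPR Cz03g31130, and the lower calls lost were those of AOD and AMX Cz10g14120.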

How the data were processed

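Deposited values were FPKM per gene and library, which the authors computed from poly-A reads and did not scale between libraries. The methods of the study name TopHat and Cufflinks and the submitters' processing notes name HISAT, Bowtie2 and RSEM, so the tool behind the files is not settled here. The build and the strand setting stay unnamed, being not given in the sources used here, and no sequence was used. Genes that a library's list lacks were set to 0.

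Libraries were divided by median-of-ratios factors, and log2(value + 0.1) was compared between times with limma 3.58.1 in R 4.3.3 (mean-variance trend, two-sided), over genes with a mean of at least 1 FPKM at either time. P-values were adjusted by Benjamini-Hochberg over all of them. FPKM carry no counts, so the precision rests on the spread of the 3 cultures. Ratios between genes of one enzyme were compared by exact permutation over libraries. The fit was run on simulated data with the same small spread in all libraries and a few changes well above the size limit. That run does not bear on the uneven 6 h libraries or on calls near the limit. All 48 members may be named, with library values for those called, those sharing an enzyme and those whose call changed. The columns of fold changes and p-values in the amino acid list of the study were not used. The members, roles and lists were chosen with earlier results of these data known.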

Additional observations from a re-analysis of the deposited data

How the results depend on the processing

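No count of members called higher or lower moved by over 1.5 times with the other scalings, pseudocounts of 1 and 0.01, no filter, a limit of 10 FPKM, no trend or no limit on the fold change. With limma's treat, which tests for a change above the size limit, 25 members were higher and 3 lower, with 5 lysine genes higher, 3 arginine genes lower and 0 synthesis genes lower. Library weights also left 0 synthesis genes lower, their fit stopping before it converged. With 1 library left out, 0 to 1 synthesis genes were lower, AOD losing its call without 0 h replicate 3 or 6 h replicate 3. The median log2 fold change over the members was 1.35 without scaling, 1.21 on TPM and 1.34 with the upper quartile, as all genes moved down with it. HIS4 turned to −0.068 on TPM. NAGS turned to −0.066, −0.198 and −0.067 and AOF Cz04g19260 to −0.015, −0.146 and −0.016 without scaling, on TPM and with the upper quartile. CPA Cz10g08090 turned to 0.014 with library weights, and none of these 4 genes was called. Over all genes tested 2772 were higher, against 1624 on TPM, 1384 with treat and 4665 with no limit on the fold change, and 3692 were lower, against 2417 with treat. Through all alternatives 25 higher and 3 lower calls were kept.

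The labels do not say whether replicate numbers pair the cultures. The correlations of same-numbered libraries were −0.30, −0.11 and −0.49, and those of differently numbered ones ran from −0.19 to 0.45, which cannot settle it. A fit with a replicate block gave 32 members higher and 5 lower and changed no call of a member, against 2696 and 3521 calls over all genes.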
